A study of Ipomoea batatas with 28 samples.

Results

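The 100 IDs described here are transcript rows whose abundance in sweet potato (Ipomoea batatas) roots stepped up inside the pencil root class, between roots of 3.5 mm and roots of 5 mm. They were chosen by measured values, from 75757 IDs that reached 1 TPM in 4 or more libraries, out of 99697 rows in the deposited table. TPM is a transcript abundance corrected for length and scaled to a fixed total in each library, so that it is relative to all other RNA there. The study sampled wild type roots at 7 stages with 4 biological replicate libraries each, 28 in all, and RNA came from the middle section of each root. Fibrous roots were S4 (1.5 mm) and S8 (2 mm), pencil roots S10 (3.5 mm) and S12 (5 mm), and storage roots S14 (10 mm), S16 (15 mm) and S20 (25 mm). No agent or transgene was given in the labels, all groups shared the wild type genotype, and how many plants gave the roots of a library was not given.

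Sweet potato roots start as thin adventitious roots, and only some of them become storage roots. In those, cambial cells divide and add parenchyma that fills with starch and with storage proteins such as sporamin. Roots whose central cylinder becomes lignified do not become storage roots. The name pencil roots is used here only for the class of S10 and S12, and the labels do not give whether these were lignified. The crop is a hexaploid, so near-identical gene copies are common and reads can be divided between rows uncertainly.

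The IDs cannot be read as genes by function here. Of all rows, 0 matched the reference table of 175826 annotated genes of another assembly, and 0 of the 100 members did. No sequence, gene name or role is therefore given, and the tissue could not be checked against marker genes. At most 4 members are printed by ID, and the others are identified by their rank, with rank 1 for the largest step. Of the members, 71 carried a G and a TU number and 29 (against 24.6% of the tested IDs) carried the prefix MSTRG.

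The members were taken by the shape of their stage means of log2(TPM + 1). The change from fibrous roots (the mean of S4 and S8) to S20 was divided into 5 steps, and the S10 to S12 step had to be upward and to hold at least 50% of the summed absolute steps. This held for 930 IDs, of which the 100 with the largest S10 to S12 step were kept. Since the rule read all stage means, the step itself and the levels around it are descriptions without a test. The step ran from 1.47 to 7.66 on the log2 scale, with a median of 1.79, while the median over all tested IDs was 0.11. The step of rank 1 stood alone, since rank 2 had 3.85. At the lower end there was no gap: ranks 98, 99 and 100 had steps of 1.49, 1.49 and 1.47, and the next 3 IDs, left out, had 1.47, 1.46 and 1.45. The share threshold also cut through a continuum. The members nearest to it held 50.14%, 50.08% and 50.01% of the summed steps in the S10 to S12 step, and the nearest IDs below it held 49.99%, 49.95% and 49.91%. In all, 660 IDs with a step as large as that of a member were left out because their other steps were too large.

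Before the results, the libraries themselves differed. The percentage of tested IDs at 1 TPM or more ran from 60.2% in S4 replicate 1 to 79.0% in S14 replicate 3, and S4 replicate 1 was the lowest of all libraries. The median log2(TPM + 1) of all tested IDs was 1.81 ± 0.05 at S10 and 1.97 ± 0.07 at S12 (SD, n = 4 each). The median ID thus also lay slightly higher at S12, although TPM has the same total in each library. In bulk tissue, fewer cells of a type and less RNA per cell cannot be told apart, and this touches every level given below.

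Most members were low in thin roots and moderate from S12 on. The median of the members in a library was 0.83 ± 0.24 at S4, 0.76 ± 0.17 at S8 and 1.06 ± 0.41 at S10 on the log2(TPM + 1) scale (SD, n = 4 each). At S12 it was 3.08 ± 0.31, and in storage roots it was 3.03 ± 0.18 for S14, 3.13 ± 0.25 for S16 and 3.33 ± 0.10 for S20. The 12 libraries of thin roots lay between 0.53 and 1.54 and the 16 libraries from S12 on between 2.75 and 3.49, a separation that the choice of members fixes. In TPM, the median member had a stage mean of 1.24 at S10 and 7.36 at S12. At S12, 27 members had a mean under 5 TPM, 41 had 10 TPM or more and 2 had 100 TPM or more.

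**Figure D1:**
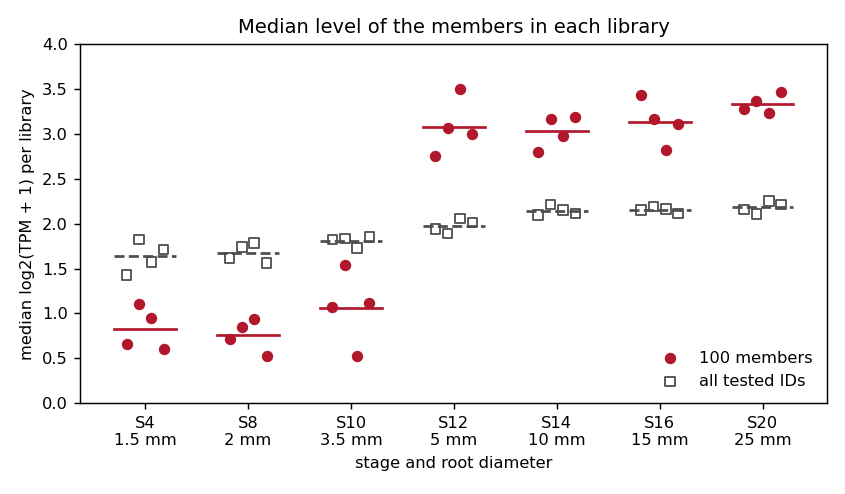
Median log2(TPM + 1) of the 100 members (filled circles) and of all tested IDs (open squares) in each of the 28 libraries, by stage and root diameter, with bars for the mean of the 4 libraries of a stage. The members lay between 0.53 and 1.54 up to S10 and between 2.75 and 3.49 from S12 on, while all tested IDs moved from 1.81 at S10 to 1.97 at S12.

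More members reached 1 TPM in the thicker roots than in the thin ones, which the choice of members favours. The number of members at 1 TPM or more was between 37 and 62 in each S10 library, between 94 and 96 in each S12 library and between 87 and 97 in the storage root libraries. Of all tested IDs, 69.9% reached 1 TPM at S10, 73.7% at S12 and between 76.5% and 77.7% in the storage stages (means over libraries). At S10, 45 members were listed at 0 in at least 1 library and 9 in all 4. At S12, 10 members were listed at 0 in at least 1 library. The rule favours this difference too, and zeros were not counted over all tested IDs. With depth unknown, a listed 0 need not mean absence. There were 3 members listed at 0 in all 12 thin-root libraries, at ranks 24, 59 and 66, and each of these was also listed at 0 in at least 1 S12 library. The sum of the members' TPM, without rank 1, was 315.8 ± 116 at S10 and 1366 ± 384 at S12 (SD, n = 4 each), with S10 libraries between 166 and 447 and S12 libraries between 1006 and 1901.

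Within pencil roots the S10 and S12 libraries were fully separated for some members only. For 64 of the 100, the lowest S12 library lay above the highest S10 library, and the same was true of 6.64% of all tested IDs. For 21 members 3 of the 4 S12 libraries lay above every S10 library, for 10 members 2 did, for 2 members 1 did and for 3 members none did. Against all 12 thin-root libraries, 54 members had every S12 library higher (4.15% of the tested IDs), and 35 had every library from S12 to S20 higher than every thinner one (2.24%). By limma, 49 members were called higher at S12 than at S10 (adjusted p under 0.05 and a log2 fold of at least 1), where 0.589% of all tested IDs were called. No member was called lower, against 0.0871%. The rule used this contrast, so nothing is read from these counts. The limma count was 24 members of 150 IDs called without S10 replicate 1, 15 of 99 without S10 replicate 3 and 24 of 117 without S12 replicate 4, against 49 of 446 with all libraries. Calls over all tested IDs thus also became fewer with these removals.

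Single pencil libraries often stood at the extremes. S10 replicate 2 was the highest S10 library for 52 members and S10 replicate 3 the lowest for 66, ties at 0 included. S12 replicate 4 was the highest S12 library for 40 members and S12 replicate 1 the lowest for 45. These counts were not made over all tested IDs. By the median log2(TPM + 1) of all tested IDs, S10 replicate 3 was also the lowest S10 library, at 1.73. S12 replicate 4 was also the highest S12 library, at 2.06. By that median the highest S10 library was replicate 5, at 1.85, and the lowest S12 library replicate 2, at 1.89. The replicate spread of the members was wider than that of a typical ID, with a median SD of 0.56 at S10 and 0.61 at S12 on the log2 scale, against 0.33 and 0.38 over all tested IDs.

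MSTRG.435, at rank 1, had a listed value of 0 in each of the 8 fibrous libraries and in 3 of the 4 S10 libraries, and held 0.17 TPM in S10 replicate 3. At S12 it held 851 TPM in replicate 1, 0 in replicate 2, 1936 in replicate 4 and 1188 in replicate 5. From S14 on, no library lay below 963 TPM, and the highest, S20 replicate 2, held 6434. The switch of this ID therefore fell between libraries of the same stage, with S12 replicate 2 at 0 as in fibrous roots and the other 3 S12 libraries near or within the storage root range. Its step was 7.66 with all libraries and 10.23 without S12 replicate 2.

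Between S10 and S12 the next ID in the numbering had a lower mean while MSTRG.435 had a higher one, and their sum did not show the step. That next ID held 2130 ± 1482 TPM at S10 (SD, n = 4). At S12 it held 1645 TPM in replicate 1, 2063 in replicate 2, 310 in replicate 4 and 0 in replicate 5. It was highest at S12 in the library where MSTRG.435 was listed at 0, and listed at 0 in a library where MSTRG.435 was high. The sum of both IDs was 2130 ± 1482 TPM at S10 and 1998 ± 568 TPM at S12 (SD, n = 4 each). As the mean of the percentages in single libraries, MSTRG.435 made up 55.1% of the sum in S12 and, in the storage stages by thickness, 74.5%, 94.9% and 80.1%. The opposition did not hold in every later root: in S14 replicate 5 MSTRG.435 held 3310 TPM and the next ID 4709 TPM, in S14 replicate 3 they held 2129 and 1627 TPM, and the means of both were higher at S14 than at S12 and at S20 than at S16. The S10 libraries of the sum ran from 886 to 3969 TPM and enclosed those of S12, from 1188 to 2496. Whether both rows come from 1 gene was not tested, since the files give no positions.

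G37306_TU61131, at rank 2, was low and uneven in thin roots and highest at S12. It held 12.7, 16.2, 0 and 5.54 TPM in S10 replicates 1, 2, 3 and 5, and 43.5, 99.3, 190 and 76.8 TPM in S12 replicates 1, 2, 4 and 5. No S12 library overlapped an S10 library. Its fibrous libraries reached 25.9 TPM, in S8 replicate 3, and its storage libraries ran from 5.14 TPM in S20 replicate 1 to 76.2 TPM in S20 replicate 3. S10 replicate 3 alone was listed at 0 at that stage, and the step was 3.85 with all libraries and 2.96 without that one.

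Some members were far more even between replicates. The member of rank 8 held 2.53, 2.61, 2.66 and 3.95 TPM in the S10 libraries and 19.5, 18.7, 20.9 and 18.4 TPM in the S12 libraries. Its fibrous libraries held at most 2.10 TPM, and its storage libraries ran from 7.20 to 28.9 TPM, so it was lower in thin roots than in every thicker library. The member of rank 16 started from a higher level. It held 12.9, 18.8, 6.58 and 13.8 TPM in the S10 libraries and 42.9, 68.1, 71.2 and 58.1 TPM in the S12 libraries, and its storage libraries ran from 54.4 to 103 TPM. In both, every library from S12 on lay above every thin-root library. At S20, though, the member of rank 8 was lower in all 4 libraries, at 9.22 to 14.7 TPM, than in any S12 library.

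**Figure D2:**
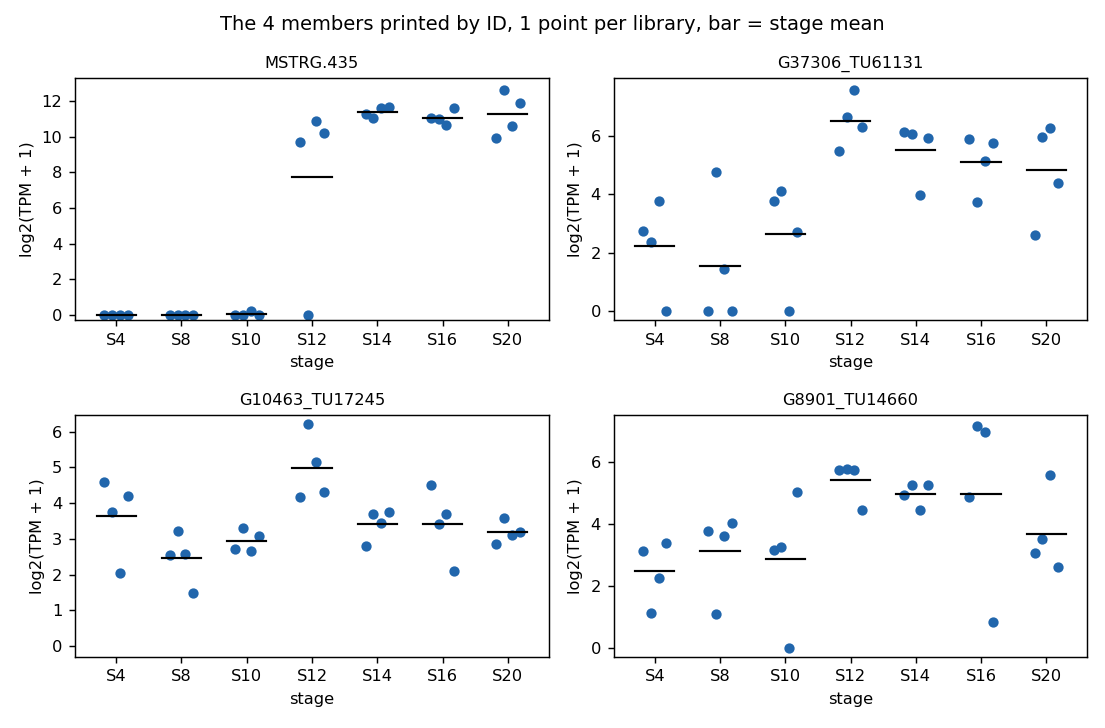
Values of log2(TPM + 1) in each of the 28 libraries for the 4 members printed by ID, with a bar for each stage mean. MSTRG.435 had a single S12 library at 0 and 3 at 851 TPM or more, G37306_TU61131 was highest at S12, and G10463_TU17245 and G8901_TU14660 stood lower at S20 than at S12.

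For the course after S12, the members were split by their difference between S12 and S20. The median difference between S12 and S20 was 0.13 over the members and 0.08 over all tested IDs. For 70 members the stage mean at S20 lay within 1 log2 unit of that at S12, for 15 it was higher by 1 or more, and for 15 it was lower by 1 or more. This split was not made over all tested IDs. It fixes how the groups differ at S20, so their levels below are descriptions only. The median member of the steady group had 1.68 TPM at S10 and 8.001 TPM at S12, followed by 6.90, 8.54 and 8.71 TPM in the storage stages by thickness. In the group that was higher later, it had 0.880 TPM at S10 and 6.42 TPM at S12, followed by 7.70, 12.5 and 17.8 TPM. In the group that was lower later, it had 0.492 TPM at S10 and 6.03 TPM at S12, followed by 3.68, 1.79 and 1.55 TPM, which is below S12 at each later stage and above S10. By limma, 13 members were called higher at S20 than at S12 and 4 lower, against 13.6% and 8.71% of all tested IDs. The S20 libraries lay above all of S12 for 9 members, against 19.3% of all tested IDs, and below all of S12 for 4, against 13.9%. The rule limited these later steps, so nothing is read from those counts. Between neighbouring stages from S12 on the counts of called members were 0. For S14 over S12 the background was 3.37% higher and 1.75% lower, for S16 over S14 it was 0.0449% and 0.0884%, and for S20 over S16 it was 3.17% and 2.76%.

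Before S12, few members differed between fibrous roots and S10, again by the choice of the shape. Called higher at S10 than in fibrous roots were 2 members, at ranks 8 and 39, against 3.82% of all tested IDs, and 0 were called lower, against 2.16%. Against S8 alone the counts were also 2 higher and 0 lower, with backgrounds of 2.87% and 1.51%. The S10 libraries lay above all fibrous libraries for 2 members, against 7.27%. The storage root libraries lay above all thin-root libraries for 38 members, against 8.34%.

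Of the lower group 5 of 15 had S12 libraries all above S10, against 48 of 70 in the steady group, 11 of 15 in the higher group and 6.64% of all tested IDs. The rule used this contrast, and the difference between the groups was not tested. By the mean TPM of a stage, 42 members were highest at S20, 31 at S12, 17 at S16 and 10 at S14.

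**Figure D3:**
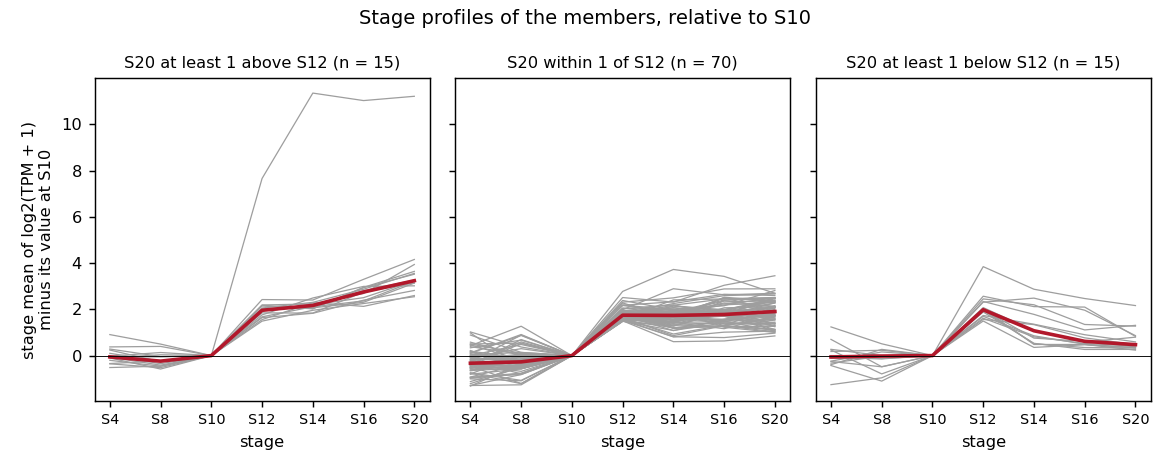
Stage means of log2(TPM + 1) minus the value at S10 for each of the 100 members (grey lines), split by the difference between S20 and S12, with the median of each group in red. The 15, 70 and 15 members share the rise at S12 by the rule, and the split itself fixes how they differ between S12 and S20. The highest grey line of the first panel is MSTRG.435.

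The members with the largest S20 deficit among those with at least 10 TPM at S12 were G10463_TU17245 and G8901_TU14660. G10463_TU17245, at rank 25, held 5.62, 8.91, 5.31 and 7.44 TPM in S10 replicates 1, 2, 3 and 5, and 17.2, 73.7, 34.6 and 18.8 TPM in S12 replicates 1, 2, 4 and 5. Its S12 libraries lay above all of S10 but not above S4, where replicate 1 held 22.9 TPM, and its S20 libraries held 6.28 to 10.9 TPM. The stage mean was 1.79 lower at S20 than at S12 on the log2 scale, a difference that the choice of this member favours. G8901_TU14660, at rank 4, held 7.83, 8.58, 0 and 31.6 TPM in the S10 libraries and 52.2, 53.3, 53.0 and 20.9 TPM in the S12 libraries. Its groups overlapped, since S10 replicate 5 lay above S12 replicate 5. Its storage libraries ran from 0.760 TPM in S16 replicate 4 to 142 TPM in S16 replicate 2, both at the same stage. The step of G8901_TU14660 was 2.57 with all libraries and 1.62 without S10 replicate 3.

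The size of the step was smaller in libraries that had no part in choosing the IDs. The rule was applied again with 1 S10 and 1 S12 library left out, in all 16 pairs, and the difference between the 2 libraries left out was read for the 100 IDs found. The IDs had a median step of 2.04 in the libraries that chose them (median over pairs) and a median difference of 0.795 in the libraries left out. Over pairs this difference ran from 0.10 to 1.00, while all tested IDs had a median of 0.09, from 0.00 to 0.18. Between 51 and 79 of the 100 IDs, with a median of 65, were higher in the S12 library left out, against 48.2% to 59.9% of all tested IDs, with a median of 55.4%. A difference of 1 or more was seen for 45 of 100 IDs in the median pair, against 9.39% of all tested IDs. Falls of 1 or more were not counted. All tested IDs also had a narrower replicate spread than the members, so they are no background of like spread. The pairs share libraries and are not independent, so no p is given.

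The median was above 0 in all 16 pairs with the pseudocount of 1, but not in every pair with a pseudocount of 0.1 or 5 or with quantile normalization, and its size followed the library. With S12 replicate 4 left out the median difference was between 0.92 and 1.00. With S12 replicate 2 left out it was between 0.10 and 0.51. The pair of S10 replicate 2 and S12 replicate 1 gave 0.15. Between 41 and 58 of the 100 IDs chosen in this way were among the 100 members.

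**Figure D4:**
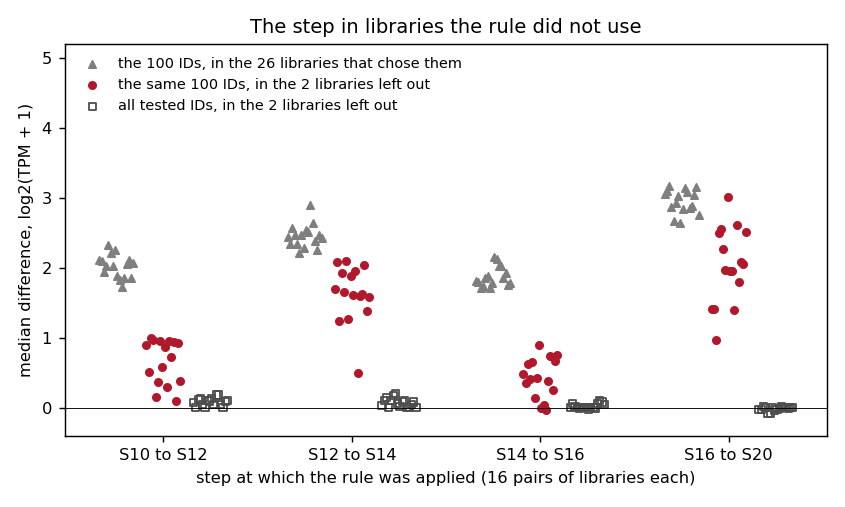
For each of 16 pairs of libraries left out at 4 steps, the median step of the 100 IDs chosen in the other 26 libraries (triangles), their median difference in the pair left out (filled circles) and that of all tested IDs (squares), in log2(TPM + 1). At S10 to S12 the circles lie between 0.10 and 1.00 and the squares between 0.00 and 0.18.

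The same rule placed at other steps gave a scale for these numbers. For the step into S10 it was met upward by 3709 IDs, for that into S12 by 930, for that into S14 by 1893, for that into S16 by 707 and for that into S20 by 1701. The ID at rank 100 had a step of 2.03, 1.47, 1.95, 1.35 and 2.41 in the same order. In libraries left out, the 100 IDs of S12 to S14 had a median difference of 1.64 (0.50 to 2.10 over pairs), those of S14 to S16 of 0.42 (-0.03 to 0.89) and those of S16 to S20 of 2.01 (0.97 to 3.01). The S10 to S12 value of 0.795 lay between them. The differences between steps were not tested, and neighbouring steps share the libraries of a stage.

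Among single libraries, the 8 pencil libraries affected membership most, as the rule ranks IDs on the step between them. When 1 of these was left out and the rule applied again, between 58 and 70 of the 100 members were found again, against 79 to 95 when any of the other 20 libraries was left out. The lowest values were 58 without S10 replicate 2 and 63 without S10 replicate 3. There were 11 members found again in all 28 removals, at ranks 1, 5, 8, 10, 12, 13, 16, 17, 22, 26 and 29. At the other end, 6 members were found again in fewer than 14 removals.

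The difference between the fibrous stages was the only contrast of stages that the rule did not use, since it took their mean. No member was called between S4 and S8, but hardly any tested ID was either, so nothing particular to the members is read from this. By limma, 0 of 100 members were called, while of all tested IDs 0.00132% were called higher at S8 and 0 lower. G10463_TU17245 was the single member with an unadjusted limma p under 0.05, at 0.0283, and its adjusted limma p was 1. The libraries of S8 lay above all of S4 for 0 members, against 0.709% of all tested IDs, and below all of S4 for 0 members, against 0.775%. The median S4 to S8 difference of the members was 0.00 and its range was -1.49 to 1.14, with 5 members differing by 1 log2 unit or more in size, as did 2.69% of all tested IDs. A p that misses the threshold does not show that the stages were alike.

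For members at loci with several rows, the step of the row can be set against the total. A G number is taken here as a locus, and a TU number as 1 of its rows. Of the 71 members with a G number, 34 were the only row of their locus and 37, from 36 loci, had between 1 and 6 other rows. Of all tested rows with a G number, 53.9% were at loci with several rows, a share close to the 37 of 71 here. The total was taken over all rows of the locus, the member included. It stepped up by at least 50% of the step of the member for 26 of these 37, and by less for 11. Where a member made up most of its locus, the total had to follow the step that the rule chose. The member of rank 92, for example, made up 98.4% of its locus at S10 and 97.8% at S12. The median step was 1.81 for the 37 members and 1.49 for their totals, which ran from 0.22 to 2.67. In 9 of the 37 the total stepped up by as much as the member or more. The total of the remaining rows was higher at S12 than at S10 for 29 of the 37 and lower for 8. For ranks 7 and 28, which share a locus, the remaining rows include the other member. None of these counts was made over all tested IDs, so nothing is read from them.

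For some members whose locus total had a small step, the division of the locus between rows changed more than its sum. The member of rank 13 belonged to a locus of 7 rows and made up 2.24% of its TPM at S10 and 10.8% at S12, while the other rows held 138 and 146 TPM. The total had a step of 0.22, against 2.19 for the member, and its S10 and S12 libraries overlapped. The member of rank 42 shared its locus with 1 other row and made up 35.4% at S10 and 81.8% at S12, and the other row went from 10.4 to 3.64 TPM. By contrast, the member of rank 7 and that of rank 28 were 2 rows of the same locus, and its total stepped up by 2.67. Of 46 tested rows at these 36 loci that were not members, 36 had a higher mean at S12 than at S10, against 62.0% of all tested IDs, and 4 were called higher by limma, against 0.589%. Rows of a locus share reads, so these rows are not independent of the members.

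**Figure D5:**
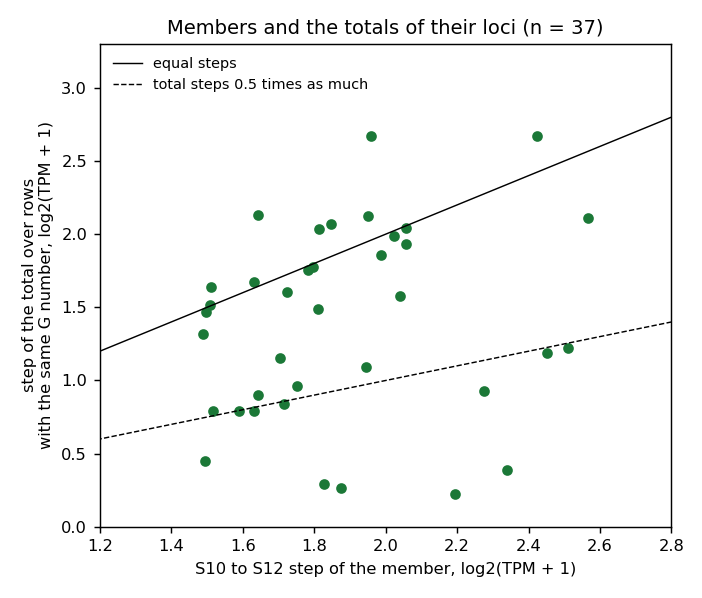
S10 to S12 step of the 37 members that share a G number with other rows, in log2(TPM + 1). It is set against the step of the total over all rows of that number, the member included. The solid line marks equal steps and the dashed line a total that steps 0.5 times as much, with 26 members on or above the dashed line and 11 below it.

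Most pairs of members were only weakly correlated between roots of the same stage. The deviation of each library from its stage mean was correlated between members over the 28 libraries, as a description. Over 4950 pairs the median correlation was 0.07, with quartiles of -0.11 and 0.26, and 46 pairs exceeded 0.7. Joining members at a correlation of 0.8 or more gave 9 groups with 23 members in all, the largest of 4. These correlations share the composition of the libraries and were grouped after their values were seen. They were not computed for other IDs, so there is no background to set them against.

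The group of 4 held ranks 7, 18, 28 and 41. It had a mean log2(TPM + 1) of 0.66 at S10 and 2.75 at S12, and of 2.77, 3.54 and 4.20 in the storage stages by thickness. In the member of rank 7 the S20 libraries ran from 15.9 to 68.1 TPM and the S12 libraries from 5.65 to 19.6 TPM. The pair of ranks 19 and 27 had a correlation of 0.94 and was lower in storage roots, with a mean of 0.33 at S10, 2.36 at S12, 1.24 at S14 and 0.91 at S20. The member of rank 19 held 4.07, 7.32, 18.5 and 0.650 TPM in S12 replicates 1, 2, 4 and 5, so its S12 libraries differed widely and 1 of them overlapped S10. It also reached 11.8 TPM in S14 replicate 5 and 14.8 TPM in S16 replicate 1, and was under 2 TPM in the other storage libraries. The member of rank 27 was high in the same libraries, with 10.4 TPM in S12 replicate 4, 4.80 in S14 replicate 5 and 5.90 in S16 replicate 1.

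Some members with correlated deviations were also close in the numbering of the IDs. There were 4 neighbouring pairs of members within 10 TU numbers, at ranks 7 and 28, 3 and 44, 16 and 53, and 18 and 60. Their deviations had correlations of 0.77, 0.73, 0.63 and 0.33 in this order. The first pair shares a G number, so reads may be shared between its rows. The files give no positions, and whether neighbouring numbers are neighbouring genes was not tested.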

How the data were processed

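Root RNA of 28 libraries was analysed from 1 deposited table of TPM values, in which the authors' columns sum to between 999998 and 1000003. Per the submitters' processing notes the tools included RSEM 1.3.1 and TopHat2 2.0.0. Which step each served, the build and the gene models are not given in the sources used here. TPM keeps no depth, so read numbers were unknown, no counting interval was computed and precision rests on the spread between the 4 libraries of a stage. Libraries were grouped by the stage in their labels and named by the replicate number of their column. The labels call the replicates biological.

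The rule, the held-out pairs, the locus totals and the correlations were computed with Python 3.11.15, NumPy 2.4.6 and pandas 2.3.3, and the figures with Matplotlib 3.10.9. A pseudocount of 1 TPM was added before log2, which understates changes of low IDs. The contrasts came from limma 3.58.1 (R 4.3.3), with 7 stage coefficients and all 28 libraries in 1 fit and an intensity trend in the prior, with Benjamini-Hochberg adjustment over 75757 IDs. It was tested on simulated data. The members and lists were chosen with earlier results of these data known. The 2 members with the largest step and the 2 with the largest S12 to S20 deficit, all with at least 10 TPM at S12, are printed by ID. Other ranks were chosen after their values were seen. The alternatives were other pseudocounts, filters, scalings, shares, list lengths, stage medians, a fit to 2 stages, a replicate block and the removal of each library. The rule at other steps, the correlations, the numbering neighbours, the other overlap counts and the sum without rank 1 were added after the data were seen. Gene lists were not used, since no ID had a name.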

Additional observations from a re-analysis of the deposited data

Results flagged for a closer look

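In 33 groups of 4 libraries, 5 had a library far from the other 3 by the ratio of its gap to the range, where chance gives about 1 in 20. One of these is fixed by ties and says nothing about chance: MSTRG.435 held 0.17 TPM in S10 replicate 3 and 0 in the other S10 libraries, where any value above 0 would stand apart. MSTRG.435 also held 0 TPM in S12 replicate 2, with at least 851 TPM in the other S12 libraries. G37306_TU61131 held 14.8 TPM in S14 replicate 4, against 59.1 TPM or more in the other S14 libraries. G8901_TU14660 held 1.14 TPM in S8 replicate 3, against 11.3 TPM or more in the others, and 20.9 TPM in S12 replicate 5, against 52.2 TPM or more in the others.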

How the results depend on the processing

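Which IDs were members depended most on the pseudocount, the share threshold and the use of means. Of the 100 members, 40 were found again with a pseudocount of 0.1, 53 with 5, 33 with a share of at least 40%, 26 with 60% and 45 with stage medians. The shares of 40% and 60% change the pool from which 100 IDs are taken. The shape was still met by 86 members with a pseudocount of 0.1, by 68 with 5 and by 63 with stage medians. Members that met it but were not found again were outranked by other IDs. Why the others no longer met it was not tested. With no filter 95 were found again, with a filter of 5 TPM 85, with median-of-ratios scaling 82, with quantile normalization 74 and with S8 alone as the fibrous stage 83. Leaving out single libraries gave 58 to 95. The 49 limma calls at S12 over S10 of 446 over all tested IDs became 18 of 132 with a pseudocount of 5, 27 of 160 with quantile normalization, 2 of 3 in a fit to the 2 stages alone, which has fewer libraries, and 15 to 53 without single libraries. With a replicate block the count was 30 of 216. The deviations of libraries of the same number had correlations of -0.01, -0.01 and -0.02 between S10 and S12. Between S4 and S8 these were 0.03, 0.19 and 0.04. Libraries of different numbers ran from -0.10 to 0.12 and from -0.37 to 0.33. So few correlations cannot show whether the numbers pair the libraries, and this was not tested. The 0 member calls between S4 and S8 stayed 0 under every alternative run, the block included. Of all tested IDs at most 10 were called in these runs. The median difference in libraries left out was 0.43 with a pseudocount of 0.1 and 0.46 with 5, and in the lowest pair it was 0 and -0.0009. With quantile normalization it was 0.60, and 0 in the lowest pair. The median step of the fixed members was 2.85 and 0.90 with these pseudocounts. Median-of-ratios scaling gave 1.69 and quantile normalization 1.68. These moved the median step of all tested IDs from 0.11 to 0.02 and 0.01. Members without overlap numbered 64 under all 3 scalings. The 26 of 37 members whose locus total held at least 50% of their step became 22 with a pseudocount of 0.1, 32 with 5 and 21 with totals over the row and its neighbours in the numbering. Depth is unknown and limits every value near 0.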
